A study of Mus musculus with 4 samples.

Results

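Astrocytes rich in Gria1 and Shisa9 were 789 cells of the uninjured mouse spinal cord, out of 4159 uninjured cells and 5078 cells in both conditions. The rule first took uninjured cells with a UMI (unique molecular identifier, 1 counted RNA molecule) of at least 2 of the 4 astrocyte genes Aqp4, Slc1a2, Gja1 and Aldh1l1. It asked for 0 UMIs of Cldn5, Pdgfra, Col3a1 and Gfap and at most 2 UMIs of Nefl, Nefm and Snap25 together, which left 2898 base astrocytes. Cells with 3 or more of the 6 genes of an Hsd11b1 program (Hsd11b1, Car14, C1qtnf4, Chil1, Igfbp2, Gpr37; 1062 cells) were set aside. Of the rest, those with 4 or more of the 6 genes of a Hes5 program (Hes5, Hopx, Phgdh, Id4, Lcat, Cyp4f15; 111 cells) were set aside too. Among the 1725 cells left, the 789 had a UMI of at least 2 of the 4 genes Gria1, Shisa9, Fam155a and Naaladl2, and the other 936 are called remaining astrocytes. They made up 27.2% of base astrocytes (exact 95% binomial interval 25.6 to 28.9%). All intervals given here cover counting error only.

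The cells came from mice carrying Cx30-CreER and the R26R-tdTomato reporter, which marks cells with an active promoter of the connexin 30 gene after tamoxifen (2 mg on 2 consecutive days). The mice were 8 to 12 weeks old at entry and had received a pool of 23 barcoded enhancer viruses in the blood, 14 days before surgery in injured animals. Segments of 5 mm were taken from uninjured cords or at 3 days after spinal cord injury, and tdTomato-positive whole cells were sorted. By the study's general account, cords of 1 to 2 animals per sex were pooled. Each condition gave 1 library of gene expression and 1 of barcodes. Cells of 1 library are not replicates of a condition, so no difference below was tested or has a replicate check. The study states that both sexes were used, but 0 of the 789 cells had a UMI of Xist, which allows a share of up to 0.380%, and 550 had a UMI of a Y-linked gene. The uninjured and injured matrices shared 7 cell barcodes, none of them among the 789.

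Gria1 encodes a pore-forming subunit of AMPA receptors, the ion channels that open on binding glutamate. Shisa9 encodes CKAMP44, an auxiliary subunit that binds AMPA receptors and shapes how fast they desensitize and recover. Fam155a encodes an auxiliary subunit of the NALCN sodium leak channel, and Naaladl2 belongs by sequence to a family of peptidases. Astrocytes sense transmitters through AMPA and metabotropic receptors, clear glutamate and GABA by uptake, and keep regional differences that trace back to the position of their progenitors along the dorsoventral axis of the cord.

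Of the enhancer barcodes, only that of A5, one of the 4 control enhancers, was found in the 789 cells. Its transcribed barcode is shown because it is the readout that the rule did not use. The study reports that many barcodes of its pooled viruses were paired with another enhancer, though correct pairs were likelier to be detected. Capitals mark the variable bases, and the 20 lower-case bases are shared by at least 90% of the 22 barcodes of 44 bases.
A5: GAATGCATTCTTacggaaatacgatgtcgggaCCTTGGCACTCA

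The 789 cells carried the usual astrocyte genes. All 16 astrocyte markers of a fixed list were above 50 CPM (UMIs per 1000000 gene UMIs, summed over the group), and together they had 24810 CPM against 25240 CPM in remaining astrocytes, a ratio of 0.983 (95% counting interval 0.972 to 0.994). Slc1a2, the main glutamate transporter, had 4790 CPM against 4640 CPM, and Slc4a4, a bicarbonate cotransporter, 4534 CPM against 4174 CPM. The rule itself required some of these markers, held Cldn5, Pdgfra and Col3a1 at 0 and capped Nefl, Nefm and Snap25, so the sums are a description. The 6 endothelial markers had 6 UMIs in all 789 cells together with 4 of them, Cldn5 included, at 0, and no cell had 3 or more of the 8 microglia markers. Neuron markers summed to 208 CPM against 330 CPM in remaining astrocytes, and 52 of the 789 cells had 3 or more of the 15. Oligodendrocyte markers had 182 CPM against 259 CPM and markers of oligodendrocyte precursors 258.5 CPM against 323 CPM. Fibroblast markers had 99.2 CPM against 86.2 CPM, mostly Col1a2 at 77.3 CPM. The part of other cell types in the results below was not tested, except where cells with such markers were left out. The tdTomato reporter had 351 CPM against 410 CPM, a ratio of 0.855 (0.781 to 0.936).

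Gria1 was found in nearly every member, and each of the other 3 rule genes in far fewer. Gria1 had a UMI in 734 of the 789 cells (93.0%), Fam155a in 436 (55.3%), Shisa9 in 435 (55.1%) and Naaladl2 in 350 (44.4%). Both Gria1 and Shisa9 were found in 400 cells (50.7%), Gria1 with Fam155a in 396 (50.2%) and Shisa9 with Fam155a in 191 (24.2%). Exactly 2 of the 4 genes were found in 480 cells, 3 in 241 and all 4 in 68. So most members entered with Gria1 and 1 other gene of the rule.

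The levels of the 4 genes are a description, since the rule used them. Gria1 (chromosome 11, 57011387 to 57330244 of GRCm38, plus strand) had 1026 CPM in the 789 cells and 434.5 CPM in remaining astrocytes. Shisa9 (chromosome 16, 11984113 to 12270902, plus strand) had 269 CPM against 29.0 CPM. Fam155a (chromosome 8, 9205902 to 9771161, minus strand) had 491 CPM against 57.6 CPM. Naaladl2 (chromosome 3, 23798102 to 25144261, minus strand) had 229 CPM against 39.4 CPM. No single cell carried more than 1.98% of a gene's UMIs in the 789 cells. With each cell thinned to 1000 gene UMIs, Gria1 kept a UMI in 62.7% of the 778 cells deep enough and in 27.6% of 906 remaining astrocytes. Shisa9 did so in 22.6% and 3.31%. In 29 uninjured cells with microglia markers, at a median of 3169 gene UMIs against 3262 in the 789 cells, none of the 4 genes had a UMI, which allows up to 28.5 CPM for each. In 25 cells with endothelial markers the 4 genes had 0 to 4 UMIs each.

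The same genes were also measured in the program cells. Gria1 stood at 1059 CPM in the Hes5 program cells and 423 CPM in the Hsd11b1 program cells. Fam155a had 507 CPM and 134 CPM in the same order, and Shisa9 209 CPM and 73.9 CPM. Of the Hes5 program cells 72.1% (62.8 to 80.2%) had at least 2 of the 4 genes, against 34.5% (31.6 to 37.4%) of the Hsd11b1 program cells. The log2 ratio of the 789 cells over the Hes5 program cells was -0.05 for Gria1 (-0.18 to 0.09), -0.05 for Fam155a (-0.24 to 0.16) and 0.36 for Shisa9 (0.06 to 0.68). Naaladl2 stood at 229 CPM against 94.1 CPM in the Hes5 program cells, a log2 ratio of 1.28 (0.85 to 1.75). The program cells were not chosen on these 4 genes and the 789 cells were, so nothing is read from these gaps.

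**Figure D1:**
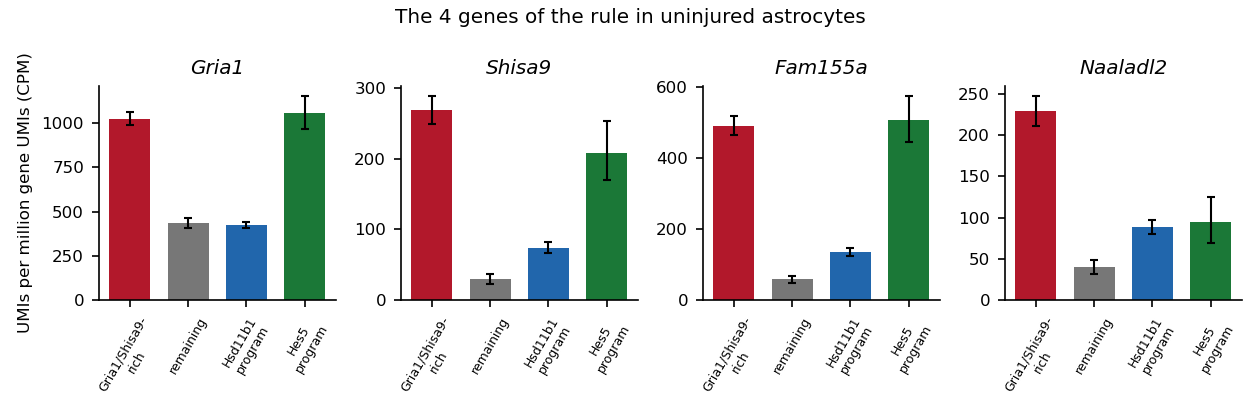
Level of Gria1, Shisa9, Fam155a and Naaladl2 in UMIs per 1000000 gene UMIs (CPM, y axis, from 0) in the 789 Gria1/Shisa9-rich cells, the 936 remaining astrocytes, the 1062 Hsd11b1 program cells and the 111 Hes5 program cells. Bars are the summed UMIs of a group and lines the exact 95% Poisson interval; Gria1 stands at 1026 CPM and 1059 CPM in the first and last group and below 435 CPM in the other 2.

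Cells just inside and just outside the threshold differed in depth as well as in the 4 genes. The 480 cells with 2 genes had a median of 3050 gene UMIs, and the 577 cells with 1 gene had 2367. Inside the threshold Gria1 was at 926 CPM and found in 90.2% of cells, and outside at 660 CPM and in 67.6%. Shisa9 was at 180 CPM inside and 44.1 CPM outside. Over all 789 cells the median was 3262 gene UMIs and 1597 genes, against 2155 UMIs and 1194 genes in remaining astrocytes. From 0 to 4 rule genes the median rose from 1893 to 4458 gene UMIs, and the part of depth in the rule was measured only by thinning and by depth classes.

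To measure each gene without its own part in the rule, the 1725 cells were split by the other 3 genes. In the 356 cells with at least 2 of Shisa9, Fam155a and Naaladl2, Gria1 stood at 1028 CPM, against 660 CPM in the other 1369, a ratio of 1.56 (1.46 to 1.66). Held out in the same way, Shisa9 had 217 CPM against 119 CPM, a ratio of 1.82 (1.58 to 2.10). For Fam155a the values were 390 CPM and 223 CPM, a ratio of 1.75 (1.58 to 1.94). Naaladl2 had 169 CPM against 122 CPM, a ratio of 1.39 (1.20 to 1.61). Each gene was thus higher where at least 2 of the other 3 were found, by 0.47 to 0.87 on the log2 scale. The rule itself set the 4 genes apart by 1.24 to 3.17. The 4 genes were chosen together with earlier results of these data known. These ratios and the ranks below are therefore a description and no independent check. Among all genes tested in the same split, Shisa9 and Fam155a ranked 5 from the highest of 3643 and 3641 genes, Gria1 28 of 3635 and Naaladl2 79 of 3618. The held-out log2 ratio of Naaladl2 was 0.06 (-0.21 to 0.34) in cells with a mitochondrial share below the median of base astrocytes and was 0.91 in the others. In the same order, Gria1 had 0.64 and 0.53, Shisa9 0.71 and 1.00, and Fam155a 0.54 and 1.07.

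Outside the 4 genes, Sez6l, Grm8 and Gabbr2 had the highest ratios. Of 3641 genes that reached 50 CPM in either group, 7 (0.192%) were 2-fold or more higher in the 789 cells than in remaining astrocytes. These were the 4 genes of the rule and Sez6l, Grm8 and Gabbr2. Ratios add 1 CPM to both sides. Gabbr2, a subunit of the GABA-B receptor, had 129 CPM against 60.7 CPM, a log2 ratio of 1.07 (0.80 to 1.38). Grm8, a metabotropic glutamate receptor, had 59.0 CPM against 26.0 CPM, a log2 ratio of 1.15 (0.75 to 1.63). Sez6l, a membrane protein of the seizure-related family, had 87.0 CPM against 32.1 CPM, a log2 ratio of 1.41 (1.06 to 1.84). No single cell held more than 8.54% of the UMIs of these 3 genes on either side. These genes were measured in the cells that the rule sorted, so their values describe the group and support nothing about it.

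The other 8 of the 15 highest genes stayed under 2-fold. They were Prkg1, a cGMP-dependent protein kinase (134 CPM against 68.9 CPM), and Slc30a10, a manganese transporter (71.9 CPM against 36.8 CPM), both at a log2 ratio of 0.95. Ptprt, a receptor tyrosine phosphatase, had 0.89 and Grm3, a second metabotropic glutamate receptor, 0.77, at 152 CPM against 88.8 CPM. Dok6, an adaptor of receptor signalling, had 0.77 and Ptchd4 had 0.74. The non-coding genes B230323A14Rik and Gm30382 completed the highest 15, at 0.86 and 0.79.

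Tenm3 and Epha5 were among the lowest genes, after the haemoglobin genes, Fos and Cryab. Of the 3641 genes, 14 (0.385%) were 2-fold or more lower in the 789 cells. Tenm3, a teneurin that acts in cell adhesion, had 35.2 CPM against 94.5 CPM, a log2 ratio of -1.40 (-1.78 to -1.07). Epha5, a receptor for ephrins, had 51.8 CPM against 132 CPM, a log2 ratio of -1.33 (-1.64 to -1.06). Nmnat2, an enzyme of NAD synthesis, Cd9, a tetraspanin, Stk32a, a kinase, and Tafa1, a secreted protein, had -1.09, -1.05, -1.02 and -1.01. Each of these 6 was higher in the Hsd11b1 program cells than in remaining astrocytes, for example Epha5 at 196 CPM and Stk32a at 151 CPM. In the Hes5 program cells Epha5 had 18.4 CPM and Stk32a 6.13 CPM.

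Several of the other genes at the low end rested on few cells. The 4 haemoglobin genes Hbb-bs, Hba-a2, Hba-a1 and Hbb-bt had 5651 UMIs in remaining astrocytes, of which 5648 came from 1 cell. For Cryab, a small heat shock protein, 58.9% of the UMIs in remaining astrocytes came from 1 cell, and for Fos 31.5%. Fos and Jun, immediate early genes, had log2 ratios of -1.60 and -1.14, and Nnat had -1.04. Without cells carrying 3 or more microglia or ependymal markers or more than 10 haemoglobin UMIs, a step chosen after seeing the data, Fos moved to -0.28, Jun to -0.68 and Nnat to -0.51, and 7 genes were left 2-fold or more lower. Tenm3 and Epha5 moved little, to -1.47 and -1.33. Cryab had -1.49, but the 1 cell with 58.9% of its UMIs was still counted, so that value still rests largely on this cell. Among cells at or above the median mitochondrial share, Cryab had -0.10 and Fos 0.27. Uchl1, a neuronal ubiquitin hydrolase, closed the lowest 15 at -0.98 and had -0.96 without those cells, with at most 7.03% of its UMIs in 1 cell. The 12 immediate early and heat shock genes summed to 108 CPM against 258 CPM, beside 1 cell with 3 or more microglia markers among the remaining astrocytes and 0 among the 789.

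Levels of genes outside the rule were also set against the number of rule genes found, in a description that the rule shaped. From 0 to 4 genes, Gabbr2 had 27.9, 77.7, 113, 144 and 166 CPM. Epha5 had 210, 90.8, 63.9, 42.0 and 18.7 CPM over the same steps. Ptprt rose at every step, from 81.1 to 237 CPM, and so did Sez6l, from 20.3 to 93.7 CPM. The other genes plotted had no steady order. Grm8 had 24.1, 27.0, 51.9, 71.5 and 59.3 CPM, and Tenm3 had 152, 64.5, 31.6, 45.4 and 25.0 CPM. Grm3 had 46.9 CPM with 0 genes and 181 CPM with 4.

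**Figure D2:**
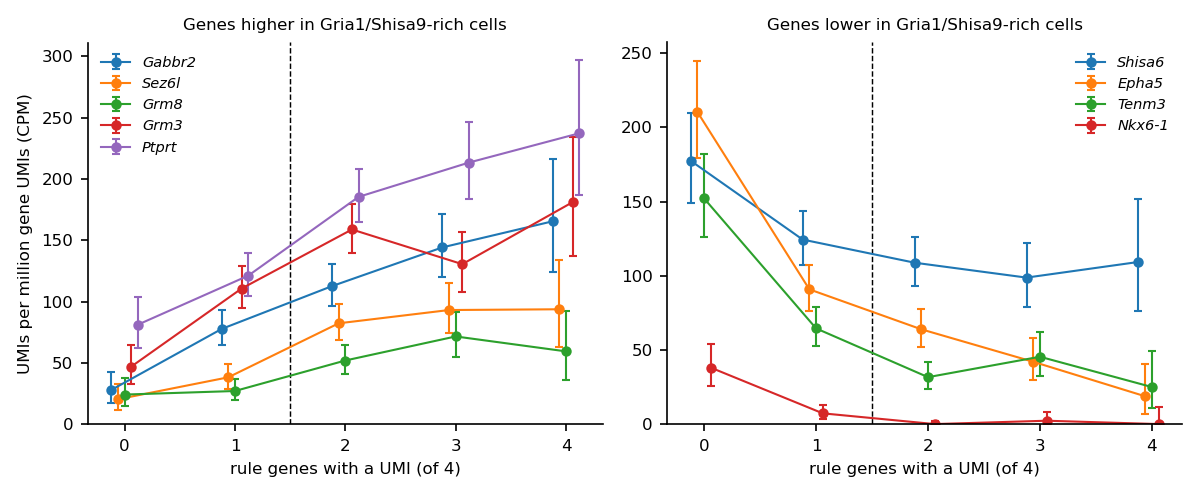
Level (CPM, y axis, from 0) of 5 genes that were higher and 4 genes that were lower in the Gria1/Shisa9-rich cells, by the number of the 4 rule genes with a UMI (x axis) in the 359, 577, 480, 241 and 68 cells of each step. Points are summed UMIs, lines the exact 95% Poisson interval, and the dashed line the threshold of the rule; Gabbr2 goes from 27.9 to 166 CPM and Epha5 from 210 to 18.7 CPM.

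The receptor lists, fixed with earlier results of these data known, are described by family member. Long genes as a class were higher too. The 5 to 95% range of log2 ratios reached 0.59 for genes of 300 kb or more and 0.41 for those of 100 to 300 kb. Gria4 and Gabrb1 span 378 kb and 491 kb and Gria2 121 kb, and their ratios lay within these ranges. The part of gene span was not tested. Counts of intervals are read against the background, in which 590 of the 3641 genes (16.2%) had a 95% counting interval wholly above 0 and 594 (16.3%) wholly below, with a median log2 ratio of 0.00. Of 3 AMPA receptor subunits past 50 CPM, Gria1 was used by the rule, and the other 2 had an interval above 0. Gria4 had 1061 CPM against 838 CPM (log2 ratio 0.34) and Gria2, the subunit that makes the channel impermeable to calcium, 292 CPM against 226 CPM (0.37). Gria3 had 4.67 CPM against 5.20 CPM. Of 13 auxiliary subunits 2 passed the filter, Shisa9, which the rule used, and Shisa6. Shisa6, a relative of Shisa9 that also binds AMPA receptors, had 106 CPM against 143 CPM in remaining astrocytes, a log2 ratio of -0.43 (-0.66 to -0.20). It had 211 CPM in the Hsd11b1 program cells and 53.2 CPM in the Hes5 program cells. Cacng8, a transmembrane AMPA receptor regulatory protein, stood at 48.5 CPM against 45.1 CPM.

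Among 20 other glutamate receptor genes 11 passed the filter, of which 6 had an interval above 0 and 1 below, with a median log2 ratio of 0.25. Of 13 GABA receptor genes 6 passed, 5 with an interval above 0 and none below, with a median of 0.30. Gabrb1, a GABA-A subunit, had 2213 CPM against 1775 CPM (0.32), and Gabbr1, the partner of Gabbr2, had 156 CPM against 166 CPM (-0.10, -0.30 to 0.11). The 2 subunits of the GABA-B receptor thus differed in direction, with the interval of Gabbr1 holding 0.

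Partners of Fam155a were low, while relatives of Naaladl2 varied. NALCN itself, the channel that Fam155a serves, had 2.16 CPM in the 789 cells and 5.63 CPM in remaining astrocytes, and its regulators Unc79 and Unc80 had 32.0 CPM and 20.9 CPM. In the family of Naaladl2, Folh1, a glutamate carboxypeptidase, had 108 CPM against 73.7 CPM (log2 ratio 0.54), while Naalad2 and Naaladl1 had 0 UMIs in the 789 cells.

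Uptake genes were split. Of 8, 4 had an interval above 0 and 4 below, with a median log2 ratio of -0.04. Glul, glutamine synthetase, had 728 CPM against 578 CPM (0.33), and Slc6a11, a GABA transporter, 1275 CPM against 1162 CPM (0.13). Slc6a9, a glycine transporter, had 362 CPM against 487 CPM (-0.43), and Slc7a10, an exchanger of serine and alanine, 1177 CPM against 1525 CPM (-0.37). Of 7 potassium channel and pump genes 6 passed, with 1 interval above 0, that of Kcnd2 (0.24), and 2 below, among them Atp1b2 (-0.21). Kcnj10, the main inward rectifier of astrocytes, had 451 CPM against 475 CPM. Among 22 synapse adhesion genes 16 passed, 11 with an interval above 0 and 1, that of Gpc6, below (-0.25). The highest ratio was that of Cadm1, an adhesion molecule, at 385 CPM against 266 CPM (0.53). Lsamp had 12960 CPM against 11080 CPM (0.23). No gene of these last 3 lists reached 2-fold. Kcnd2 spans 514 kb, and the adhesion list runs from long genes such as Lrrc4c at 1313 kb to Sparcl1 at 34.6 kb. The median log2 ratio of the adhesion list was 0.20, against 0.18 for all tested genes of 300 kb or more. Over all 3641 genes 16.2% had an interval above 0 and 16.3% below. The part of gene span in these lists was not tested.

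Transcription factors of dorsal and ventral cord were then listed, after their values had been seen. Nkx6-1, a factor of ventral progenitors, had 2 UMIs in the 789 cells and 41 in remaining astrocytes, a ratio of 0.0405 (0.00474 to 0.156). It had 121 UMIs (24.8 CPM) in the Hsd11b1 program cells and 0 in the Hes5 program cells. Zic1, a factor of the dorsal neural tube, had 40.6 CPM against 19.5 CPM, a ratio of 2.08 (1.46 to 3.01). Nkx6-1 and Zic1 were under the 50 CPM filter, without which 390 genes were 2-fold or more higher and 763 lower. Pax3, also dorsal, had 121 CPM against 84.5 CPM, a ratio of 1.43 (1.20 to 1.72). The Hes5 program cells had 53.2 CPM of Zic1 and 108 CPM of Pax3, and the Hsd11b1 program cells 13.55 CPM and 58.9 CPM. Msx1 and Nkx2-2 had ratios of 1.04 (0.553 to 1.97) and 0.982 (0.660 to 1.47), and Olig2 had 0.972 (0.793 to 1.19). Pax7 and Foxa2 had 1 and 0 UMIs. Of the lists fixed earlier, the regional list of 15 genes had 1 interval above 0 and 2 below among 6 genes past the filter, led by Slc6a11 and Agt, and Reln had 39.5 CPM against 55.5 CPM. Among cells with a mitochondrial share at or above the median the log2 ratio was -3.61 for Nkx6-1 and 0.26 for Zic1, and among the others -3.69 and 1.23.

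RNA make-up was measured because the 4 genes are long, and nuclear RNA is rich in unspliced long genes and poor in mitochondrial RNA. The median mitochondrial share was 5.37% of gene UMIs in the 789 cells (quartiles 3.63 and 7.81%) and 7.50% in remaining astrocytes (4.77 and 12.2%). It was 5.57% in the Hsd11b1 program cells and 4.82% in the Hes5 program cells. Only 9 of the 789 cells (1.14%, 0.523 to 2.15%) had a share under 1%, against 6 of 936 (0.641%, 0.236 to 1.39%). Genes spanning 100 kb or more made up a median of 36.1% of UMIs, against 32.2% in remaining astrocytes, 30.8% in the Hsd11b1 program cells and 29.9% in the Hes5 program cells. Malat1, a long non-coding RNA kept in the nucleus, made up 7.43% against 5.12%, 6.59% and 8.78%. Ribosomal protein genes made up 0.917% against 1.03%, 1.21% and 1.23%. The 789 cells thus had the highest long gene share and the lowest ribosomal share of the 4 groups, but neither the lowest mitochondrial share nor the highest Malat1 share. Against remaining astrocytes alone, mitochondrial and ribosomal medians were lower and Malat1 and long gene medians higher. With 0 and with 4 rule genes, the mitochondrial median was 7.9% and 4.7% and that of Malat1 4.57% and 8.39%. For long genes it was 32.0% and 39.1%, and for ribosomal protein genes 0.998% and 0.802%. Depth rose over the same steps, and the cause was not tested.

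**Figure D3:**
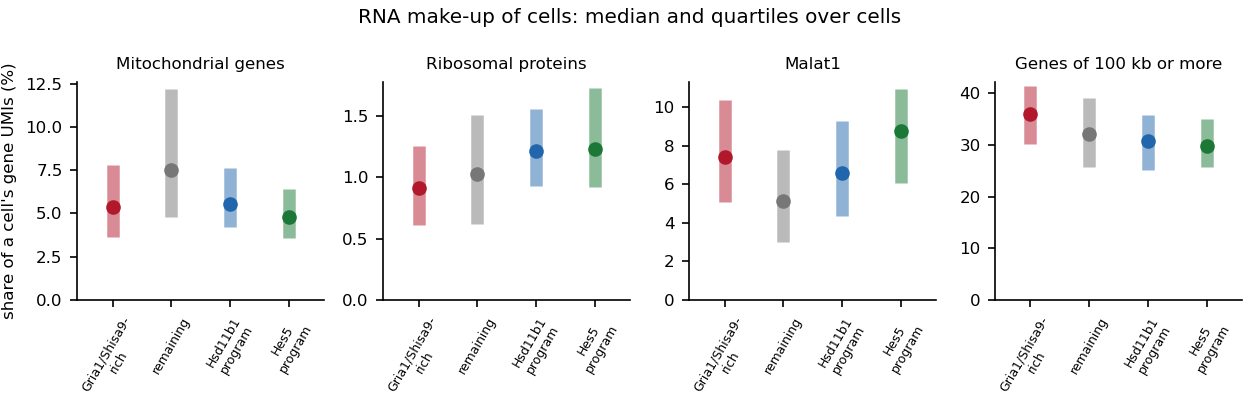
Share of a cell's gene UMIs (%, y axis, from 0) from mitochondrial genes, ribosomal protein genes, Malat1 and genes of 100 kb or more in the 4 groups. Points are medians and bars run between the quartiles over cells; the Gria1/Shisa9-rich cells have the highest median for long genes, 36.1%, and a mitochondrial median of 5.37%, close to 5.57% in the Hsd11b1 program cells.

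Gene span moved with the difference between the groups. The median log2 ratio over remaining astrocytes was -0.26 for 580 genes under 10 kb, -0.11 for 713 genes of 10 to 30 kb, 0.03 for 1229 of 30 to 100 kb, 0.13 for 818 of 100 to 300 kb and 0.18 for 300 of 300 kb or more. Over the Hsd11b1 program cells the first and last class had -0.39 and 0.23, and over the Hes5 program cells -0.30 and 0.20. In a list of long astrocyte genes, 19 of 23 past the filter had an interval above 0, among them Lsamp and Npas3 (0.27). In a list of 21 mostly shorter astrocyte genes 13 had an interval below 0 and 4 above, among the former Ckb (-0.30) and Cst3 (-0.19). That list had no strict limit of span, since it held Cpe at 100.5 kb and Plpp3 at 75.4 kb. All 12 mitochondrial genes past the filter and 71 of 79 ribosomal protein genes had an interval below 0. The 8 nuclear RNAs together had 84760 CPM against 64930 CPM, a ratio of 1.305 (1.297 to 1.314). Most of that was Malat1, at 8.42% of summed gene UMIs against 6.43%. Of 3 past the filter 2 had an interval above 0 and 1 below, with Kcnq1ot1 at 0.59 and Neat1 at -0.59. The 5 to 95% range of genes of 300 kb or more ran from -0.22 to 0.59. Grm8 and Gabbr2, at 860 kb and 330 kb, had 1.15 and 1.07, but were named for their high ratios, so their place above that range is a description. The part of gene span in the ratios was not tested. Of the 7 genes past 2-fold, 5 spanned 300 kb or more and 2 spanned 100 to 300 kb. Of all 3641 tested genes, 1118 spanned 100 kb or more. The 7 include the 4 genes of the rule, so the count is a description.

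**Figure D4:**
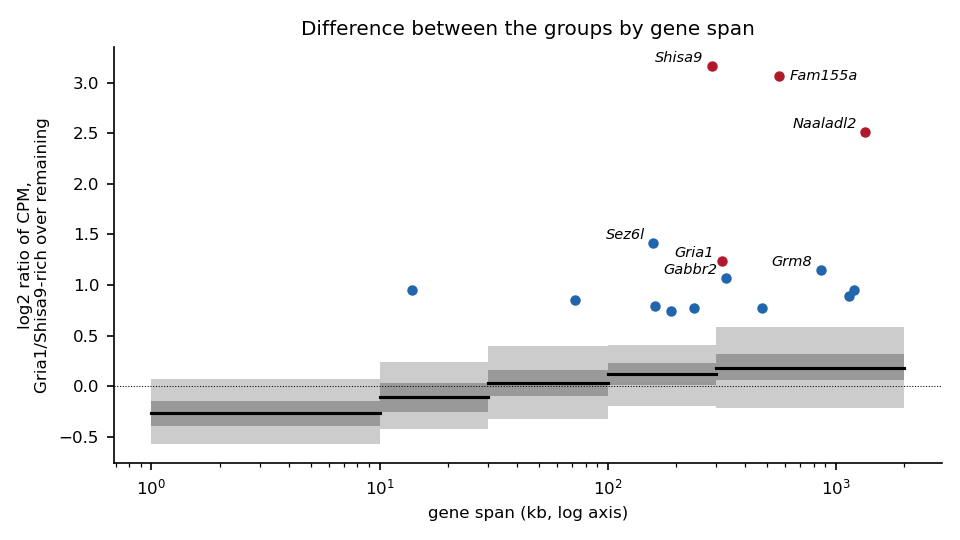
Log2 ratio of CPM, Gria1/Shisa9-rich cells over remaining astrocytes (y axis), against gene span in kb (x axis, log scale). Black lines, dark and light bands are the median, quartiles and 5 to 95% range of all tested genes in 5 span classes, and points are the 15 genes with the highest ratio (red for genes of the rule, blue for others); the class medians go from -0.26 to 0.18 and all 15 points, chosen for their high ratios, lie above the light band.

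The ratios of the leading genes were computed again on either side of the median mitochondrial share and within depth classes. At or above that median the 789 cells still had a lower median mitochondrial share than remaining astrocytes, 8.41% against 10.4%, and a higher long gene share, 34.9% against 30.9%. Below it the mitochondrial medians were 3.92% and 4.12%. Gabbr2 had a log2 ratio of 1.20 among cells below the median mitochondrial share and 0.88 among the others. Sez6l had 1.58 and 1.43, and Tenm3 -1.69 and -1.08, in the same order. Between 2000 and 4000 gene UMIs, where 416 of the 789 cells and 410 remaining astrocytes lay, Gabbr2 had 1.30, Sez6l 1.17, Grm8 1.11, Epha5 -1.51 and Tenm3 -1.36. In that class the median mitochondrial share was 5.52% against 6.26% and the long gene share 35.8% against 33.6%. For Ptchd4 the ratio was 0.24 in that class and 1.52 in cells of 500 to 2000 gene UMIs, and for Epha5 it was -0.05 in the latter.

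The 789 cells were also set against each of the 2 programs. Over the Hsd11b1 program cells 25 of 3677 genes (0.680%) were 2-fold or more higher in the 789 cells and 26 (0.707%) lower. Grm8 had 11.1 CPM and Gabbr2 27.1 CPM in the Hsd11b1 program cells, log2 ratios of 2.31 and 2.21, beside median mitochondrial shares of 5.37% and 5.57%. Over the Hes5 program cells 22 of 3785 genes (0.581%) were higher and 20 (0.528%) lower. There Grm8 had 143 CPM and Gabbr2 245 CPM, log2 ratios of -1.27 and -0.93, and Ptprt 254 CPM, a log2 ratio of -0.34 (-0.62 to -0.05). Grm3 and Sez6l had intervals that held 0, with 170 CPM and 100.2 CPM. On Grm8 and Gabbr2 the 789 cells thus stood between the 2 programs, as did remaining astrocytes, at 26.0 CPM and 60.7 CPM. The programs' own genes, used by the rule, were below the program cells but not absent. Hsd11b1 had 101 CPM against 172 CPM in remaining astrocytes and 421.5 CPM in the program cells, and Hopx 124 CPM against 81.9 CPM and 423 CPM.

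When base astrocytes were clustered without any gene of the rule, the 789 cells did not form a cluster of their own. Cluster 0, with 711 cells and led by Grm8, Gabbr2, Ptchd4, Ptprt and Dok6, held 48.0% of them, 12.8% of remaining astrocytes, 14.7% of the Hsd11b1 program cells and 50.5% of the Hes5 program cells. They made up 53.3% of that cluster. Cluster 1 held 20.2% of them and as many of the remaining astrocytes (20.2%), and cluster 2, led by Taco1, Lars2 and mitochondrial genes, 17.4% and 34.1%. The clusters also differed in depth and mitochondrial share. Medians were 4102 gene UMIs and 4.28% in cluster 0, and 1838 gene UMIs and 10.6% in cluster 2. The part of depth and mitochondrial share in the clusters was not tested. Cluster 5, with Epha5, Stk32a and Nkx6-1 among its leading genes, held 3.55% of the 789 cells and 44.5% of the Hsd11b1 program cells. Shisa9 stood at 222 CPM in cluster 0 and 35.0 CPM in cluster 5. At a finer resolution the 2 clusters with the most of the 789 cells held 30.8% and 19.0%. The cells of one cluster share a library, and these shares have no test.

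**Figure D5:**
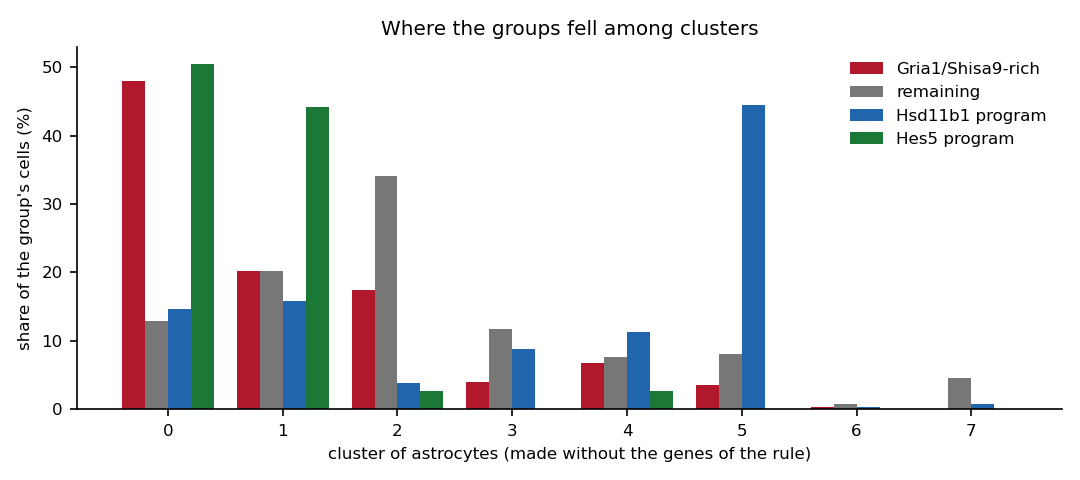
Share of each group's cells (%, y axis, from 0) in the 8 clusters of 2898 base astrocytes, clustered without the genes of the rule (x axis, cluster number). Bars are the 4 groups of uninjured astrocytes; cluster 0 holds 48.0% of the Gria1/Shisa9-rich cells and 50.5% of the Hes5 program cells, and cluster 5 holds 44.5% of the Hsd11b1 program cells.

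The A5 barcode, counted in a separate library of the same cells, differed in the share of cells with a UMI, while the interval of its rate per gene UMI held 1. It had 156 UMIs in 138 of the 789 cells (17.5%, 14.9 to 20.3%), or 56.1 per 1000000 gene UMIs, and 115 UMIs (49.8 per 1000000) in 11.3% of remaining astrocytes (9.37 to 13.5%), a ratio of rates of 1.13 (0.879 to 1.45). The ratio over the Hsd11b1 program cells was 0.856 (0.702 to 1.04) and over the Hes5 program cells 1.10 (0.716 to 1.75). No cell among the 789 had more than 2 A5 UMIs. The barcodes of the other 22 enhancers, the 19 candidate enhancers of reactive astrocytes among them, had 0 UMIs in the 789 cells, which allows each a share of up to 0.380% of cells with a UMI and sets no limit on the cells that carry the virus. Of 29 cells with microglia markers 9 had an A5 UMI (31.0%, 15.3 to 50.8%), so a barcode in a cell is not read as activity in it.

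Of 392 injured astrocytes 38 had 0 UMIs of Gfap, and 3 cells of the injured library met the whole rule. With the Gfap condition dropped in both libraries, 71 of 392 injured astrocytes (18.1%, 14.4 to 22.3%) and 918 of 3465 uninjured ones (26.5%, 25.0 to 28.0%) met the rest. Over all those astrocytes, Gria1 was at 237 CPM after injury and 603 CPM without it, a ratio of 0.393 (0.363 to 0.424). Shisa9 had 48.1 CPM and 119 CPM, a ratio of 0.405 (0.339 to 0.480), and Fam155a a ratio of 0.609 (0.547 to 0.676). Naaladl2 was higher, at 146 CPM against 112 CPM, a ratio of 1.31 (1.18 to 1.46), as was Grm8, with 1.55 (1.28 to 1.87). Gabbr2, Sez6l, Ptprt and Grm3 had ratios of 0.442 to 0.530, and Gria4 and Gria2 had 0.153 and 0.216. Slc1a2, a general astrocyte gene, had 0.508 (0.495 to 0.521). For scale, the median log2 ratio was 0.08 over 4504 genes and -0.39 over 1244 genes of 100 kb or more, and the median long gene share was 20.9% in injured and 32.3% in uninjured astrocytes. The median depth was 5368 and 3405 gene UMIs, respectively. Xist had a UMI in 25.5% of the injured and 0.115% of the uninjured astrocytes. With 1 library each, injury, the animals and their sex cannot be told apart.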

How the data were processed

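Gene and barcode UMIs were counted by the authors with Cell Ranger and deposited as 1 raw count matrix per condition, with 32287 gene and 23 enhancer features. The file headers give version 7.1.0, the submitters' processing notes 8.0.1 and the build mm10. Cells were called before deposit, and no source used here mentions doublet removal for these libraries. Scrublet called 0 of 4159 uninjured cells, so only its scores were used. Groups followed the rule on cells above 500 and below 50000 gene UMIs. UMIs were summed per group and scaled to CPM. Shares have Clopper-Pearson, sums Poisson and ratios conditional binomial exact 95% intervals. A count of 0 allows up to 3 counts. PCR duplicates were collapsed by UMI. There was 1 library per condition, so no test was made. Genes that reached 50 CPM in either group were compared, with 1 CPM added. The named genes were the 15 highest and 15 lowest ratios, and of each list the members with the highest CPM, with exceptions stated. Members and lists were chosen with earlier results of these data known. Gene positions and spans came from GENCODE M21 (GRCm38), matched by identifier for 32235 of 32285 genes. Clusters used 2000 variable genes, 15 components, 15 neighbours and Leiden resolution 0.5 or 1.0 (scanpy 1.11.5, igraph 0.11.9, Python 3.11.15, scipy 1.17.1). Ratios were checked on simulated data, and the alternatives are listed under the dependence on processing. The A5 barcode sequence was read from the study's table of barcodes. Some genes of the lists are not reported here by name.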

Additional observations from a re-analysis of the deposited data

How the results depend on the processing

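No paired analysis was possible because the groups compared were cells of 1 library. The 7 genes 2-fold or more higher became 40 with a filter at 10 CPM, 390 with no filter, 3 when Shisa9 or Fam155a was taken out of the rule, 20 with cells thinned to 1000 gene UMIs, 196 in cells of 500 to 2000 gene UMIs, 25 in cells of 4000 to 8000 and 13 in cells below the median mitochondrial share. The 14 genes lower became 8 with 10 CPM added, 99 with a filter at 10 CPM, 763 with no filter, 9 with at least 3 rule genes, 7 without Gria1 and 9 without Shisa9 in the rule, 152, 8 and 71 in the depth classes 500 to 2000, 2000 to 4000 and 4000 to 8000, 4 and 35 in cells at or above and below the median mitochondrial share, and 7 without cells with markers of other types, an alternative chosen after seeing the data. The 27.2% of base astrocytes became 29.3% of cells with at least 2000 gene UMIs, 10.7% with at least 3 genes, 12.3% without Gria1, 20.5% without Shisa9, 20.7% without Fam155a, 22.3% without Naaladl2 and 15.3% thinned. Thinning also moved cells of the 2 programs under their thresholds, so 2437 cells were compared there. The A5 ratio of 1.13 became 1.48 in cells of 500 to 2000 gene UMIs, from 14 and 33 UMIs. The named genes were picked for their ratios in the same cells, and 4 were in the rule. Signs kept under alternatives on those cells are therefore a description. Of 576 values of the named genes under an alternative 571 kept their sign. The exceptions were Nnat, at 0.48 thinned and 0.71 in cells of 500 to 2000 gene UMIs, and Fos, at 0.11, 2.32 and, at or above the median mitochondrial share, 0.27. All 56 held-out values were above 0, with log2 ranges of 0.51 to 1.19 for Gria1, 0.64 to 1.26 for Shisa9, 0.49 to 1.70 for Fam155a and 0.06 to 0.91 for Naaladl2, whose interval held 0 below the median mitochondrial share and at 2000 to 4000 gene UMIs (0.20, -0.11 to 0.52). Apart from the change in cells or genes compared that each alternative makes, the cause was not tested. Cells above 8000 gene UMIs were too few and were not run as a class. Depth limits genes of low count, and 1 library per condition leaves no replicate error.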
